A study of Bos indicus x Bos taurus with 78 samples.

Results

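Dark-cutting degree 1/4 is the mildest degree in a survey of dark-cutting beef, and 8 of the 78 sampled steers carried it. They were chosen by the phenotype label alone and set against the 53 steers labelled normal. All were male Bos indicus x Bos taurus steers, and each gave one frozen biopsy of the Longissimus lumborum, a loin muscle. The labels give the degree as a fraction and do not define it, and name no age, diet, treatment or genetic alteration for either group, nor the day of sampling. The question was which microRNAs (miRNAs) differ with the phenotype, here at the degree closest to normal. Since each biopsy is a separate animal, errors between libraries include the differences between animals.

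Dark-cutting meat is dark, firm and dry. It forms when a muscle enters slaughter with too little glycogen to make the lactic acid that normally lowers its pH. MiRNAs are short RNAs that pair with messenger RNAs through a seed near their 5′ end and lower their translation and stability. In skeletal muscle a small set, the myomiRs, is made from or beside muscle genes and acts in muscle development and fibre type, and others reach a biopsy in blood, vessel and connective tissue cells. Roles and host genes named below are those known from humans and mice.

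No miRNA separated the 8 steers of degree 1/4 from the 53 normal steers once the number of tests was taken into account. Of 272 miRNAs that passed the low-count filter, 0 (0%) passed edgeR's quasi-likelihood test at a Benjamini-Hochberg adjusted p under 0.05, where the smallest adjusted p was 0.9996. An unadjusted p under 0.05 was reached by 3 miRNAs (1.10%), 1 higher (0.368%) and 2 lower (0.735%), and 5% of 272 would be 13.6. By total count scaling there were 2 higher, miR-2422 and miR-1307, and 0 lower. DESeq2 and limma-voom also gave 0 calls, with 6 and 7 miRNAs at an unadjusted p under 0.05. The log2 fold change was above 0 for 130 miRNAs and below 0 for 142, a split that became 162 and 110 when libraries were scaled by total count alone. The median log2 fold change was -0.01, and the middle 90% of miRNAs lay between -0.36 and 0.25.

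The errors set what this comparison could have missed. The median standard error was 0.18 on the log2 scale, and the 95% interval excluded a 2-fold difference in either direction for 258 of the 272 miRNAs. A 1.5-fold difference was excluded for 181. Precision followed the level of a miRNA. All 28 miRNAs with at least 1000 CPM (counts per 1e+06 reads, scaled by TMM factors) excluded 1.5-fold, as did 50 of 54 between 100 and 1000 CPM and 68 of 82 between 10 and 100 CPM, but only 35 of 108 under 10 CPM. The 14 miRNAs for which a 2-fold difference remained possible were miR-10020, miR-1246, miR-144, miR-204, miR-2284a, miR-2285ba, miR-2285bg, miR-2332, miR-2422, miR-302a, miR-302d, miR-33a, miR-451 and miR-653. The log2 fold change of miR-10020 was -0.54 ± 0.66 (SE), and -1.90 without replicate 1 (unadjusted p = 0.0285, adjusted p = 0.981 by edgeR). Of the 14, miR-451 at 175 CPM over the 61 libraries was the one above 10 CPM.

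**Figure D1:**
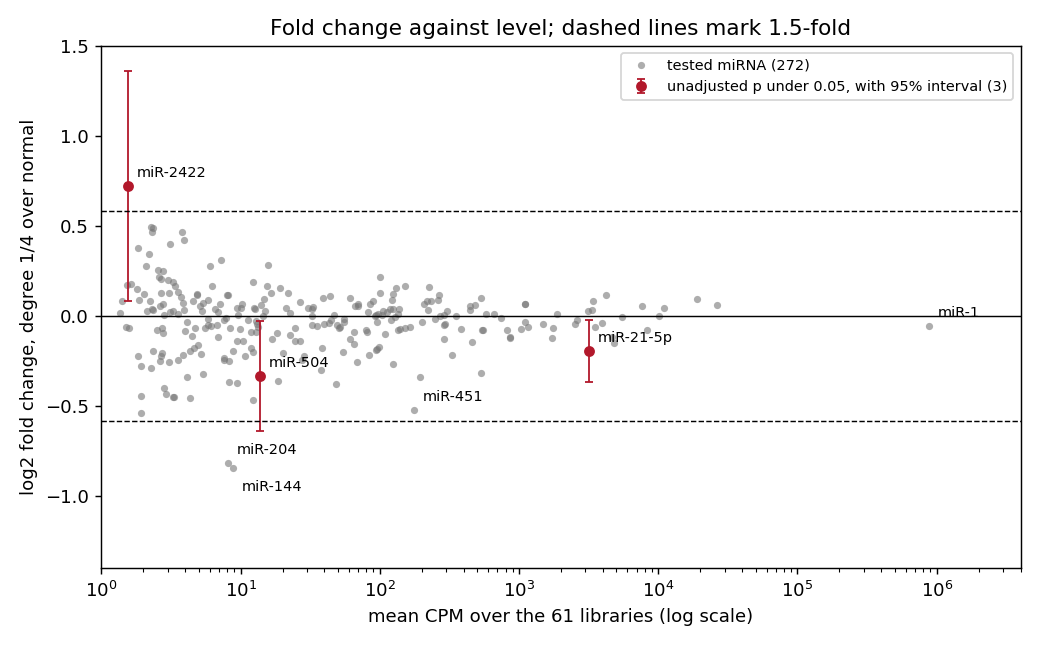
Log2 fold change of degree 1/4 over normal (y axis) against mean CPM over the 61 libraries (x axis, log scale) for the 272 tested miRNAs. Red points are the 3 miRNAs with an unadjusted p under 0.05, with 95% intervals, and the points beyond the dashed 1.5-fold lines are miR-2422, miR-144 and miR-204, all under 10 CPM.

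Library size and make-up differed between the groups by less than the spread among steers. Total counts ran between 2688170 and 3713699 in degree 1/4 and between 1427817 and 4535675 in normal steers (two-sided exact permutation test of the rank sum, p = 0.975). The number of miRNAs with a count averaged 399 ± 15.2 in degree 1/4 (SD, n = 8) and 398 ± 21.9 in normal steers (SD, n = 53, exact permutation p = 0.765). For these and the share of miR-1, the share of the next 10 miRNAs and the TMM factor, the smallest adjusted p over the 5 measures was 0.780 by the exact permutation test. Of 1030 rows in the table, 548 had a count in at least 1 of the 8 steers and 288 in all 8. Only 4 rows had counts in the 8 steers and none in the 53 normal steers, namely miR-2285al-5p, miR-2325b, miR-2367-3p and miR-2416, with at most 3 counts each over the 8 libraries.

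Among the 8 libraries of degree 1/4, replicate 1 had the most miRNAs far from the normal mean. It had the lowest miR-1 share of the 8, at 79.6%, and the highest TMM factor, at 1.43. Both lay inside the normal ranges, 72.3% to 88.6% and 0.677 to 1.84. In replicate 1, 31 of the 272 miRNAs lay more than 2 normal SD from the normal mean of log2 CPM. The other 7 steers had 6 to 19 such miRNAs, and normal steers 2 to 43 (median 13). The values of replicate 1 farthest out were high for miR-361, miR-378 and miR-193b and low for miR-450b and miR-3613a. Without replicate 1 the count of calls was again 0, with 8 miRNAs at an unadjusted p under 0.05. For several of the miRNAs described below, the value without replicate 1 is also given.

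The muscle miRNA miR-1 dominated every biopsy. It held 83.8% ± 2.22 of all counts in degree 1/4 (SD, n = 8) and 84.2% ± 3.04 in normal steers (SD, n = 53). Next came miR-143, typical of vessel wall cells, at 2.68% ± 1.00 in degree 1/4 and 2.58% ± 0.995 in normal steers. It was followed by miR-133a, made from the same transcripts as miR-1, at 2.06% ± 0.616 in degree 1/4 and 1.87% ± 0.601 in normal steers. The miRNAs miR-22-3p (1.14% in degree 1/4 and 1.08% in normal steers) and miR-26a (1.05% in degree 1/4 and 1.02% in normal steers), both known to increase as myoblasts differentiate, held the same ranks in both groups. Ranks differed only below these. In degree 1/4, let-7f was sixth and miR-30e-5p seventh, and let-7a-5p was ninth, which in normal steers was rank 11. Together these 10 miRNAs held 93.7% of counts in degree 1/4 and 93.8% in normal steers.

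**Figure D2:**
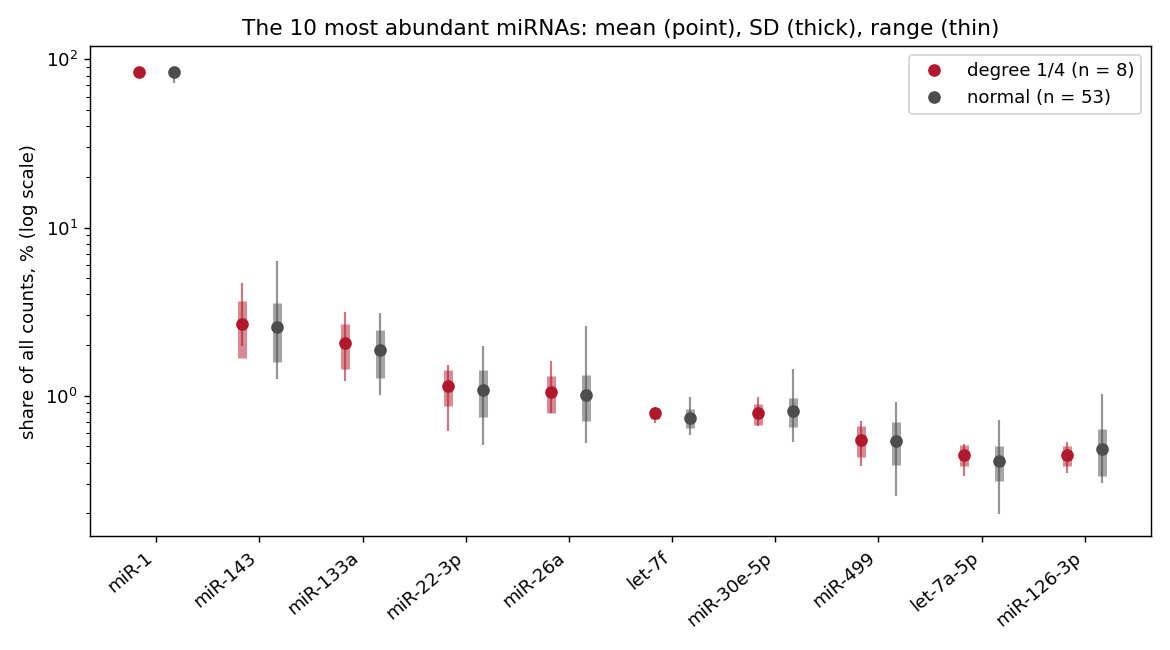
Share of all counts (y axis, log scale) of the 10 most abundant miRNAs of degree 1/4, with degree 1/4 (red, n = 8) beside normal (grey, n = 53). Points are means, thick bars SD and thin bars the range, and the range of degree 1/4 overlaps that of normal steers for each of the 10.

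None of the myomiRs passed the test, and their intervals were narrow. Of 7 tested members of the skeletal muscle list, 3 were above 0 and 4 below, with a median log2 fold change of -0.00, against -0.01 over all 272. By total count scaling 5 were above 0 and 2 below. The log2 fold change was -0.06 ± 0.12 (SE) for miR-1, 0.10 ± 0.14 for miR-133a, 0.09 ± 0.12 for miR-133b and 0.03 ± 0.09 for miR-206, the myomiR of regenerating and developing fibres. The 2 myomiRs encoded in introns of slow or related myosin genes had wider errors. For miR-208b it was -0.08 ± 0.27, with 26.1, 85.9, 85.2, 151, 58.1, 70.3, 29.1 and 106 CPM in the 8 steers. Normal steers ran between 19.2 and 225 CPM with a median of 69.2, so all 8 lay inside the normal range. For miR-499 it was -0.00 ± 0.15, a direction that turned with the scaling, at 5501 ± 1478 CPM in degree 1/4 (SD, n = 8) and 5517 ± 1401 CPM in normal steers (SD, n = 53). The eighth member, miR-208a, had 21 counts over the 8 libraries and was below the filter.

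The largest fold change upwards belonged to a low miRNA. miR-2422 had 2.87, 2.17, 3.60, 2.05, 1.61, 2.42, 1.71 and 2.62 CPM in the 8 steers, and 0 to 3.25 CPM with a median of 1.29 in normal steers. All 8 lay above the normal median, and 1 of them above the normal maximum, while many normal steers were as high. Its log2 fold change was 0.72 ± 0.32 (SE, 95% interval 0.09 to 1.36, unadjusted p = 0.0268, adjusted p = 0.9996 by edgeR). The counts behind it were 5 to 12 per library in degree 1/4 and 0 to 11, with a median of 4, in normal steers. Without replicate 3 the log2 fold change was 0.61 (unadjusted p = 0.0789 by edgeR). Without replicate 1 it was 0.67 (unadjusted p = 0.0533 by edgeR). With any other steer of degree 1/4 left out, the unadjusted p lay between 0.0221 and 0.0409 by edgeR.

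The lowest p among abundant miRNAs was that of miR-21-5p, a widely expressed miRNA known for its increase in inflamed and fibrotic tissue. It had 2269, 2952, 3346, 2744, 2660, 2860, 3018 and 2613 CPM in degree 1/4, and 2550 to 5209 CPM with a median of 3152 in normal steers. Only replicate 3 lay above the normal median, and replicate 1 lay below the normal minimum. The log2 fold change was -0.19 ± 0.09 (SE, 95% interval -0.37 to -0.02, unadjusted p = 0.0287, adjusted p = 0.9996 by edgeR), so a 1.5-fold difference was outside the interval. Without replicate 1 it was -0.16 with an unadjusted p of 0.0789 by edgeR, and by total count scaling -0.15 with an unadjusted p of 0.211.

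The miRNA miR-504, which lies in an intron of FGF13, was the third with an unadjusted p under 0.05. It had 21.4 CPM in replicate 1 and 8.93, 9.004, 10.6, 10.7, 10.2, 11.3 and 7.10 CPM in the other 7 steers of degree 1/4. Normal steers ran between 7.62 and 23.5 CPM with a median of 13.8. Replicate 1 was near the top of the normal range, and the other 7 were below the normal median, 1 of them below the normal minimum. The log2 fold change was -0.33 ± 0.15 (SE) with all 8 steers (unadjusted p = 0.0321 by edgeR) and -0.55 without replicate 1 (unadjusted p = 0.000844, adjusted p = 0.115 by edgeR). With any 1 of the other 7 left out instead, it lay between -0.34 and -0.26, and the unadjusted p between 0.0432 and 0.102 by edgeR. By total count scaling it was -0.21 (unadjusted p = 0.236 by edgeR).

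The same steer weighed on miR-328 and miR-1307. For miR-328 replicate 1 had 9.64 CPM and the others 1.93, 3.00, 2.05, 4.52, 2.15, 1.37 and 0.747 CPM, while normal steers ran between 1.90 and 10.9 CPM with a median of 4.07. Of the 8 steers, 6 were below the normal median and 2 of these below the normal minimum. The log2 fold change of miR-328 was -0.45 ± 0.25 (SE) with all 8 steers and -0.97 without replicate 1, where it had the smallest p of all miRNAs (unadjusted p = 0.000332, adjusted p = 0.0903 by edgeR). For miR-1307 the 8 values were 9.90, 1.69, 2.40, 1.64, 7.42, 5.66, 8.22 and 2.99 CPM in degree 1/4. Replicates 1, 5, 6 and 7 were above the normal median of 3.31 CPM and the other 4 below it, with 2 of the high ones above the normal maximum of 7.88 CPM. Its log2 fold change was 0.47 ± 0.24 (SE), and 0.23 without replicate 1.

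**Figure D3:**
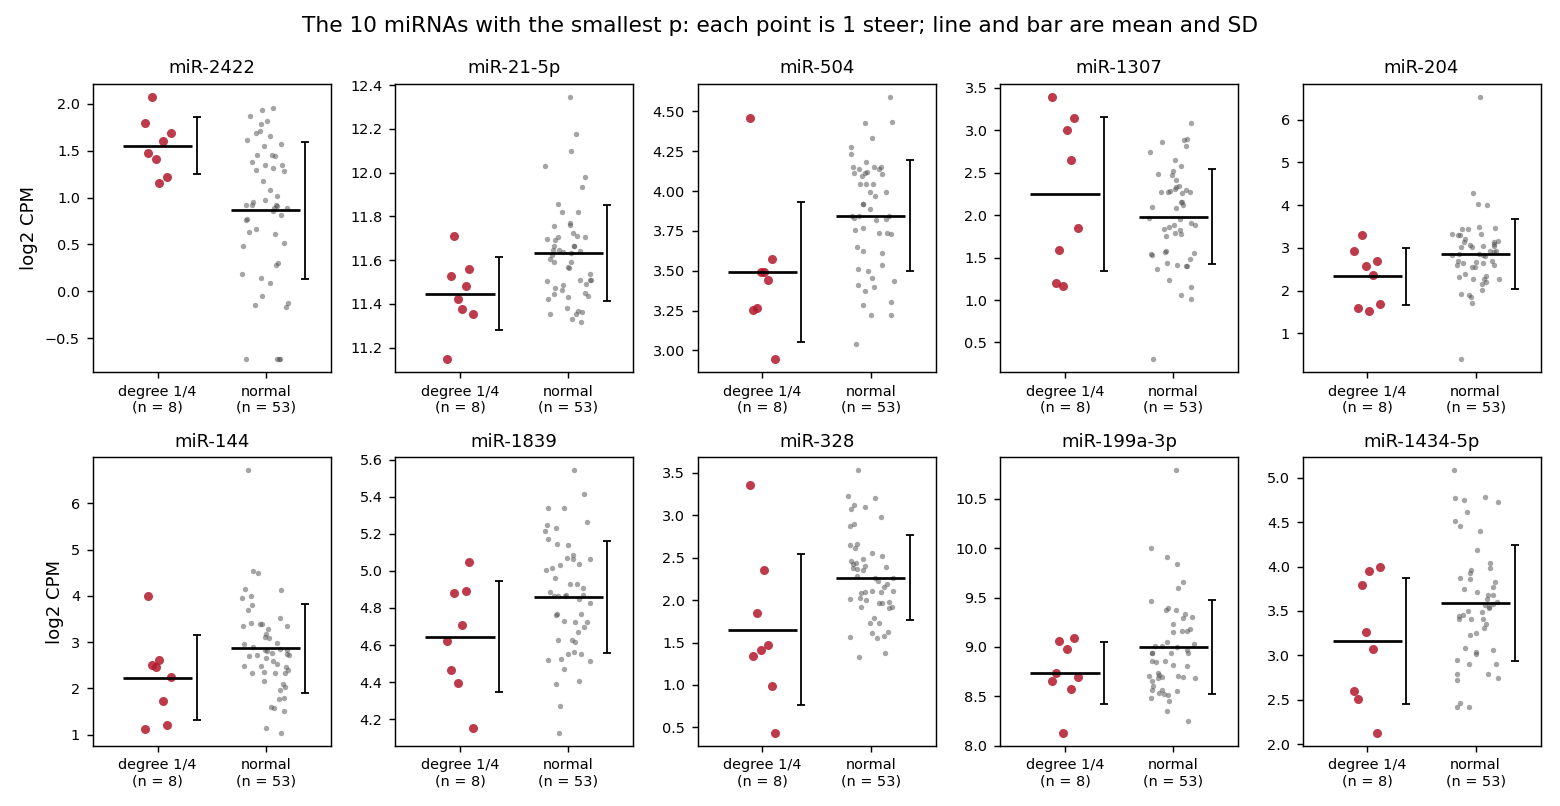
Log2 CPM (y axes) of the 10 miRNAs with the smallest p, each point 1 steer, with degree 1/4 (red, n = 8) left of normal (grey, n = 53), and with mean and SD in black. The 2 groups overlap in each panel, replicate 1 is the highest red point for miR-504, miR-328 and miR-1307, and 1 normal steer stands far above the rest for miR-204 and for miR-144.

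The largest fold changes downwards, for miR-144 and miR-204, each rested partly on 1 normal steer. The erythroid miRNA miR-144 had 1.56, 15.4, 5.10, 4.91, 5.49, 2.69, 1.71 and 4.11 CPM in degree 1/4. In normal steers it had 1.46 to 103.9 CPM with a median of 6.19, and 7 of the 8 steers of degree 1/4 were below that median. Its log2 fold change was -0.84 ± 0.44 (SE), which became -1.37 without replicate 2, the highest of the 8, and -0.53 without normal replicate 19. For miR-204, which lies in an intron of TRPM3, the 8 values were 7.04, 2.41, 9.30, 5.32, 2.26, 4.58, 5.82 and 2.62 CPM in degree 1/4, against 0.711 to 92.1 CPM with a median of 6.63 in normal steers. Its log2 fold change was -0.82 ± 0.41 (SE), and -0.49 without normal replicate 53. For miR-144 the unadjusted p by edgeR was 0.0608 with all steers, 0.00734 without replicate 2 and 0.119 without normal replicate 19. The DESeq2 test with all steers gave an unadjusted p of 0.0477 for miR-144 and 0.0427 for miR-204. Neither miRNA passed the adjusted threshold in any of these fits.

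The remaining miRNAs among the 10 with the smallest p had lower means in degree 1/4 than in normal steers. They were miR-1839 (log2 fold change -0.22 ± 0.12 SE), miR-199a-3p (-0.32 ± 0.18), whose family is known from fibroblasts and other mesenchymal cells, and miR-1434-5p (-0.46 ± 0.26). The values of miR-1434-5p were 5.47, 5.07, 13.2, 9.01, 14.8, 7.81, 3.77 and 15.3 CPM in degree 1/4, and 4.74 to 33.3 CPM with a median of 11.1 in normal steers. Of the 8, 3 were above the normal median and 1 was below the normal minimum.

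**Figure D4:**
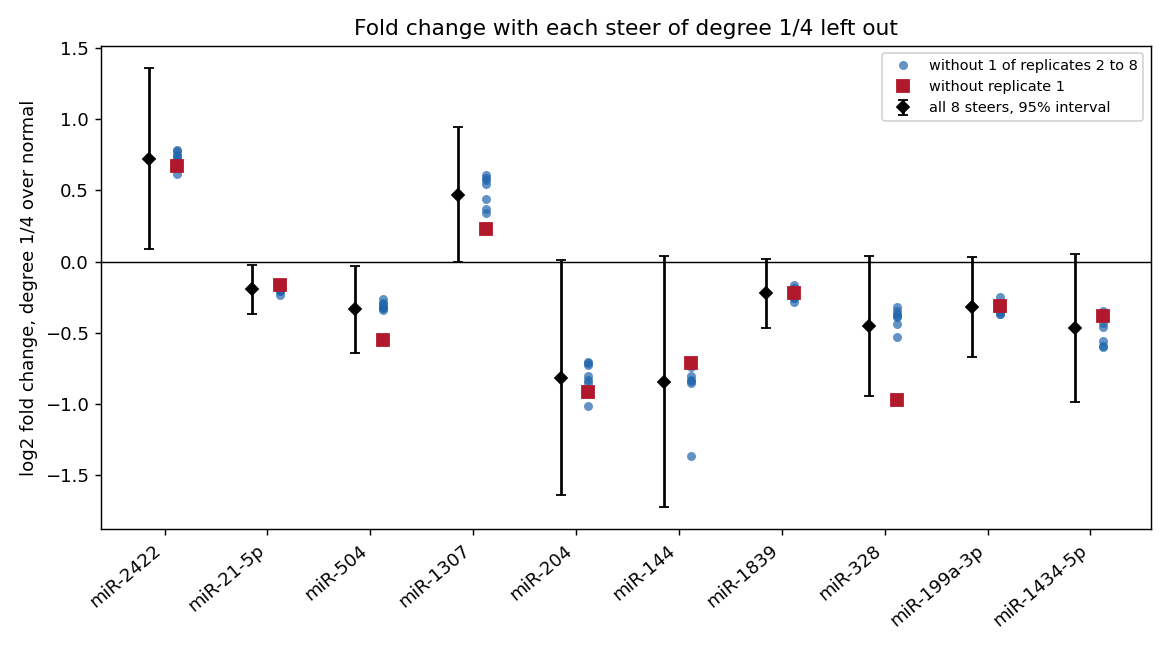
Log2 fold change of degree 1/4 over normal (y axis) for the 10 miRNAs with the smallest p, from all 8 steers (black, with 95% interval) and with each steer of degree 1/4 left out in turn. Leaving out replicate 1 (red square) moved miR-328, miR-504 and miR-1307 most, leaving out replicate 2 moved miR-144 to -1.37, and no point crossed 0.

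Among miRNAs of at least 10 CPM the highest log2 fold changes were those of miR-378b (0.28 ± 0.19 SE), miR-196b (0.22 ± 0.13), miR-29d-3p (0.19 ± 0.15), miR-196a (0.17 ± 0.11) and miR-380-3p (0.17 ± 0.16). Both miR-196 rows, whose genes lie within the HOX clusters, were highest in replicates 3 and 4. For miR-196b these 2 steers had 160 and 174 CPM and the others 66.5, 109, 80.4, 109, 78.8 and 130 CPM, and both exceeded the normal maximum of 156 CPM. The lowest were miR-451 (-0.52 ± 0.42), miR-1434-5p, miR-142-5p (-0.38 ± 0.22), miR-1248 (-0.36 ± 0.32) and miR-199a-5p (-0.34 ± 0.23). None of these 10 reached an unadjusted p under 0.05 by edgeR with all steers. Single steers moved some of them by over 1.5 times. Without replicate 4, miR-196b was 0.10 and miR-196a 0.096. miR-380-3p was 0.29 without replicate 3 and 0.098 without replicate 7. miR-1248 was -0.69 without replicate 5 (unadjusted p = 0.0492 by edgeR) and -0.22 without replicate 7. Smaller moves took miR-196b to 0.30, 0.28 and 0.28 without replicate 1, 5 or 7 (unadjusted p = 0.0310, 0.0487 and 0.0463 by edgeR). They took miR-1434-5p to -0.59 and -0.60 without replicate 5 or 8 (unadjusted p = 0.0371 and 0.0350 by edgeR), and to -0.35 without replicate 7. None passed the adjusted threshold.

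Low glycogen is the known feature of dark-cutting muscle, so miRNAs of glucose and lipid metabolism were described as a group. Of 10 tested members, 7 were above 0 and 3 below, beside 130 and 142 over all 272. The median log2 fold change of the list was 0.07. That median was -0.02 without replicate 1 and 0.15 by total count scaling, which also moved the median of all 272 to 0.03. The highest member was the rare arm miR-27a-5p (0.40 ± 0.28 SE). The miR-27 rows also stand in the muscle atrophy list. The miR-378 rows, whose main member lies in an intron of PPARGC1B and acts in mitochondrial metabolism, were all slightly above 0, at 0.08 ± 0.10 (SE) for miR-378, 0.28 ± 0.19 for miR-378b, 0.08 ± 0.11 for miR-378c and 0.05 ± 0.13 for miR-378d. Replicate 1 held the highest miR-378 level, 5673 CPM against 2720 to 3578 CPM in the other 7, and it lay above the normal maximum of 5103 CPM. Without that steer the log2 fold change was -0.05 for miR-378 and 0.16 for miR-378b. For miR-103 and miR-107, which act on insulin sensitivity, it was 0.08 ± 0.10 and -0.00 ± 0.15. miR-33a, made from an intron of the sterol regulator SREBF2, had -0.44 ± 0.34, at 1.46 CPM on average in degree 1/4 and 2.01 CPM in normal steers. The hypoxia miRNA miR-210 was near the filter, with 0 to 2.90 CPM in degree 1/4 and 0 to 3.99 CPM in normal steers, and its log2 fold change of -0.06 ± 0.37 turned to 0.02 by total count scaling.

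The muscle atrophy list was spread evenly around 0, with 4 of 8 tested members above and 4 below. The miR-23, miR-24 and miR-27 rows belong to 2 clusters whose members are known to restrain the ubiquitin ligases of muscle wasting. Their most abundant members, miR-24-3p, miR-27b and miR-23b-3p, had log2 fold changes of -0.06 ± 0.14, 0.04 ± 0.07 and 0.06 ± 0.09 (SE). The rarer arm miR-27a-5p had 0.40 ± 0.28 and its partner miR-27a-3p -0.12 ± 0.16, the widest gap between arms of 1 hairpin. Over 21 hairpins with both arms tested, the arms had the same sign in 8, and the median gap was 0.13.

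Most miRNAs of blood and immune cells were below 0, with no calls among them. The counts were 0 above and 6 below for inflammation (median log2 fold change -0.21), 1 above and 7 below for white blood cells (-0.21), and 1 above and 7 below for red blood cells (-0.10), beside 130 above and 142 below over all 272. These lists share members: miR-155, miR-223 and both miR-146 rows stand in both inflammation and white blood cells. By total count scaling the counts were 1 above and 5 below, 1 and 7, and 2 and 6. The smallest unadjusted p within them was that of miR-21-5p, and the next that of miR-144. In such bulk tissue, fewer cells of a type and less of a miRNA per cell cannot be told apart.

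The levels of single blood miRNAs overlapped widely between the groups. miR-142-5p, which is typical of cells of the blood-forming lineage, had 21.1, 40.1, 35.4, 52.8, 29.4, 41.5, 36.996 and 49.7 CPM in degree 1/4, and 21.2 to 143 CPM with a median of 45.7 in normal steers. Its other arm miR-142-3p had a log2 fold change of 0.02 ± 0.34 (SE), against -0.38 ± 0.22 for miR-142-5p. miR-451, made from the same transcript as miR-144 and abundant in red blood cells, had 142, 168, 108, 128, 140, 110, 85.3 and 139 CPM in degree 1/4, against 52.5 to 2634 CPM with a median of 115 in normal steers. Although 5 of the 8 were above the normal median, the fitted log2 fold change was -0.52 ± 0.42. It was -0.09 without normal replicate 19, which holds that maximum. The immune-response miRNAs miR-146a, miR-155 and miR-223 had -0.22 ± 0.26, -0.22 ± 0.19 and -0.23 ± 0.27. Without replicate 1 miR-146a was -0.083, and without replicate 4 it was -0.41.

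The 95% intervals of all 6 tested vessel miRNAs included 0. The endothelial miR-126-3p, from an intron of EGFL7, had a log2 fold change of -0.15 ± 0.11 (SE) and its partner arm miR-126-5p -0.08 ± 0.11. For miR-221 and miR-222 it was -0.00 ± 0.19, a direction that turned with the scaling, and -0.02 ± 0.21. The smooth muscle pair had 0.06 ± 0.18 for miR-143 and 0.16 ± 0.15 for miR-145. miR-145 was highest in replicates 3 and 1, at 439 and 339 CPM, against 156 to 252 CPM in the other 6 steers and a median of 205 CPM in normal steers. Its log2 fold change was -0.0039 without replicate 3 and 0.082 without replicate 1.

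Among fibroblast miRNAs 3 of 10 tested members were above 0 and 7 below, with a median log2 fold change of -0.07. The members below were miR-21-5p, both miR-199a arms, miR-199b, miR-214, miR-29a and miR-29b. The 2 arms of miR-199a had nearly the same fold change, -0.32 ± 0.18 and -0.34 ± 0.23 (SE), and miR-199b had -0.18 ± 0.16. miR-199a-3p had 401, 426, 534, 280, 503, 381, 543 and 415 CPM in degree 1/4, against 304 to 1766 CPM with a median of 491 in normal steers. Without normal replicate 53 its log2 fold change was -0.25. The miR-29 rows, known for their collagen targets, lay on both sides of 0, at -0.03 ± 0.09 for miR-29a and 0.12 ± 0.15 for miR-29c.

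**Figure D5:**
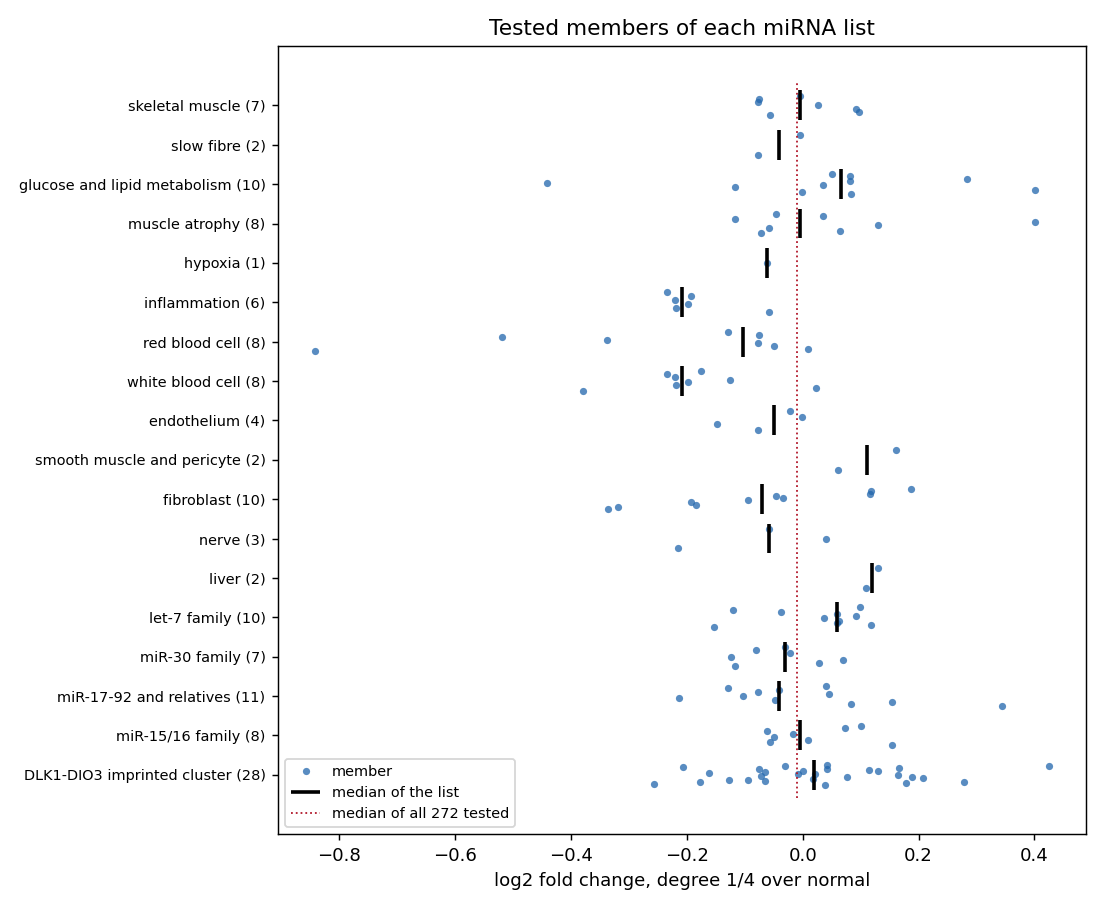
Log2 fold change of degree 1/4 over normal (x axis) for the tested members of each list, with the number tested in brackets. Each point is 1 miRNA, the black bar is the median of the list and the dotted line the median of all 272, and the red blood cell list runs from -0.84 to 0.01.

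The lists for nerve and liver held both members with no counts and expressed members, and the epithelium list held only rare or absent ones. In the 8 steers miR-122, the liver miRNA, and miR-124a and miR-124b, of neurons, had 0 counts, and miR-205, of epithelium, had 0 counts in either group. None of the epithelium list passed the filter, and miR-141 had the most counts of it, 8 over the 8 libraries. Of the nerve list 3 members were tested, 1 above 0 and 2 below, and the most abundant, miR-128, averaged 289 CPM in degree 1/4 and 336 CPM in normal steers. Its log2 fold change was -0.22 ± 0.12 (SE). Of the liver list miR-194 averaged 109 CPM in degree 1/4 and 99.2 CPM in normal steers, and miR-192 averaged 46.6 CPM in degree 1/4 and 43.2 CPM in normal steers. Their log2 fold changes were 0.13 ± 0.12 for miR-194 and 0.11 ± 0.14 for miR-192.

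The members of the large families lay on both sides of 0. Of the let-7 family, which restrains growth genes, 7 of 10 tested rows were above 0 and 3 below, with a median log2 fold change of 0.06, and let-7a-5p had 0.12 ± 0.11 (SE). Of the miR-30 family 2 of 7 were above 0 and 5 below, which became 4 and 3 by total count scaling. The miR-15/16 family divided 4 and 4, and miR-17-92 with its relatives 5 and 6. Members were matched by name and not by seed. The counts therefore include the rarer arms let-7a-3p (log2 fold change -0.15), miR-30b-3p (0.07) and miR-424-3p (0.07). Of the DLK1-DIO3 cluster, a block of miRNAs expressed from the maternal chromosome, 28 of 55 rows were tested, 16 above 0 and 12 below, with a median of 0.02. Its highest was miR-543, at 0.42 ± 0.26, and its most abundant, miR-411a, had 0.00 ± 0.14.

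The 8 steers varied among themselves about as much as normal steers did. The SD of log2 CPM was larger in degree 1/4 for 146 of the 272 miRNAs and smaller for 126, and its median was 0.415 in degree 1/4 and 0.463 in normal steers. Among the 164 miRNAs of at least 10 CPM it was larger for 99 and smaller for 65, with medians of 0.351 in degree 1/4 and 0.335 in normal steers. Single steers had their own extremes. Replicate 2 had 0 counts of miR-491 and replicate 4 had 0 counts of miR-301a. Replicate 3 was high in miR-145 and replicate 5 in miR-2478, at 87 counts, which was low in replicate 3 at 9 counts. Replicate 8 had 2 counts of miR-328 and 1 of miR-363.

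The title numbers of the steers fall below 600 for 3 steers of degree 1/4 and 18 normal steers, and above it for 5 and 35. The labels do not call this a batch. No miRNA passed a test of whether the difference between degree 1/4 and normal differs between the ranges, by edgeR's interaction test (0 calls, smallest adjusted p = 0.947, 7 of 272 at an unadjusted p under 0.05). Among these 7, miR-145 had a log2 fold change of 0.60 ± 0.24 (SE) below 600 and -0.14 ± 0.19 above. For miR-328 it was 0.08 ± 0.36 and -0.99 ± 0.33, where the 3 steers below 600 include replicate 1. For miR-144 it was 0.21 ± 0.63 and -1.52 ± 0.58, where replicate 2 is below 600 and normal replicate 19 above. Within the ranges the log2 fold change of miR-2422 was 1.22 ± 0.48 below 600 and 0.40 ± 0.42 above, that of miR-21-5p was -0.13 ± 0.14 and -0.23 ± 0.11, and that of miR-504 was -0.13 ± 0.24 and -0.49 ± 0.20. These 3 miRNAs had the same sign in both ranges. They were chosen by their p in all of these steers, so this is no separate test of them.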

How the data were processed

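Per the labels' protocols, total RNA of Longissimus lumborum biopsies was extracted with TRI reagent and made into small RNA libraries with a NEXTflex kit. Trimmomatic 0.32, FastQC and DESeq2 1.34.0 appear in the submitters' processing notes. How reads were aligned and counted, and to which reference or build, was not given in the sources used here. No positions or sequences are therefore reported, and seed families were not tested. The matrix deposited by the authors holds raw read counts, 1 row per mature miRNA and 1 column per steer. Reads of near-identical miRNAs may be split or repeated between rows, and 21 rows repeated another row's counts, none of them among the tested ones. The authors' table of fold changes was not used here.

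Groups followed the phenotype label. A miRNA was tested if at least 8 libraries reached the CPM that 10 counts give at the median library size, and the counts of all libraries summed to 15 or more. The test was edgeR 4.0.16's quasi-likelihood test with TMM factors (R 4.3.3), in 1 fit of all 78 libraries with a term per label group. The other degrees were outside the contrast but entered the filter, the estimate of spread and the TMM scaling. A fold change is thus a change relative to the remaining miRNAs. P-values were Benjamini-Hochberg adjusted over all 272 miRNAs, with a threshold of 0.05. Log2 CPM used a prior count of 2. Library measures were compared by an exact permutation test of the rank sum. The test was also run on counts simulated from the means and spread of these data. That outcome is not given here and is not used as support. Depth is given in the text, and its sampling error is part of the standard errors.

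The text names the 10 smallest p-values, the 5 highest and 5 lowest fold changes at 10 CPM or more, the 10 most abundant miRNAs, up to 3 most abundant tested members of each of 19 lists, and those with 1 steer far from the others. Other list members, both arms of a hairpin, miRNAs with wide intervals, rows seen in 1 group only, the extremes of single steers and miRNAs of the range test were chosen after their values were seen. The group, lists and tests were chosen with earlier results of these data known. Alternatives were DESeq2 1.42.0, limma 3.58.1 (voom), other scalings and filters, and leaving out single steers; leaving out each of the 53 normal steers in turn was added after seeing the data. Among the 28 pairs of the 8 libraries, none agreed within sampling noise.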

Additional observations from a re-analysis of the deposited data

Results flagged for a closer look

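In 4 of the 66 sets of 8 values examined, 1 steer of degree 1/4 lay far from the other 7, measured by its gap to the nearest steer relative to the whole range. Chance alone does this in about 1 in 20 sets. Replicate 1 accounted for 2 of them. miR-504 was at 4.46 log2 CPM in it and at most 3.57 in the others, and miR-378 was at 12.47 log2 CPM in it and at most 11.80 in the others. Replicate 3 was low in miR-380-3p, a miRNA of the DLK1-DIO3 cluster, at 2.85 log2 CPM against at least 4.04 in the other 7. Replicate 4 was high in miR-30e-5p, at 13.6 log2 CPM against at most 13.01. Of these 4 values, that of miR-378 exceeded the normal maximum and the other 3 lay within the normal range. The part of replicate 1's low miR-1 share and high TMM factor in its values was not tested.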

How the results depend on the processing

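No miRNA passed the adjusted threshold under any alternative tried. These were 3 other scalings, DESeq2, limma-voom, 3 other filters, a fit of the 61 libraries alone and the title number range as a covariate. Each of the 8 steers of degree 1/4 and each of the 53 normal steers was also left out in turn. The smallest adjusted p over all these fits was 0.0903 by edgeR, for miR-328 without replicate 1. Taking repeated rows once could change nothing, since no tested row repeated another. The 3 miRNAs at an unadjusted p under 0.05 became 6 with DESeq2, 7 with limma-voom, 33 with at least 1 count (741 miRNAs tested), 28 with at least 10 counts in all (542 tested) and 0 with at least 50 counts on average (144 tested). Leaving out 1 steer of degree 1/4 gave 3 to 8, with 8 without replicate 1, 7 without replicate 4 and 6 without replicate 3, 5 or 7. Leaving out 1 normal steer gave 3 to 5, with 5 without normal replicate 32, 34 or 36. Total count scaling moved the median log2 fold change from -0.01 to 0.03.

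Of 61 named miRNAs, 26 changed direction under at least 1 alternative, and the largest of these had a log2 fold change of 0.16 as reported. miR-499 became 0.0034 with DESeq2 size factors and with the DESeq2 test, 0.017 by total count, 0.00019 without the miR-1 row, 0.013, 0.026 and 0.025 with the 3 filters, 0.0022 in the 61 libraries and 0.0044 without normal replicate 19. miR-221 became 0.0072 with DESeq2 size factors and without the miR-1 row, 0.0070 with the DESeq2 test, 0.042 by total count, 0.011 with limma-voom and with the range covariate, 0.019 and 0.021 with the 2 looser filters and 0.020 in the 61 libraries. Total count scaling also gave 0.015 for miR-210, 0.014 for miR-125b, 0.024 for miR-486, 0.021 for miR-29a, 0.049 for miR-30d and -0.0011 for miR-411a. With limma-voom miR-16a was -0.017 and miR-411a -0.019. With at least 10 counts in all miR-30d was 0.0038 and miR-195 0.0072, and with at least 50 counts on average miR-29a was 0.0071, miR-30d 0.024 and miR-195 0.0089. The cause was not tested.

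Leaving out each steer of degree 1/4 in turn, log2 fold changes ran over these ranges around 0: miR-1 -0.14 to 0.0079, miR-143 -0.14 to 0.13, miR-133a -0.018 to 0.16, miR-22-3p -0.0025 to 0.13, miR-26a -0.026 to 0.023, miR-499 -0.089 to 0.077, miR-208b -0.29 to 0.047, miR-378 -0.055 to 0.13, miR-27b -0.022 to 0.072, miR-23b-3p -0.029 to 0.12, miR-210 -0.30 to 0.10, miR-16a -0.097 to 0.086, miR-221 -0.11 to 0.11, miR-145 -0.0039 to 0.24, miR-9-5p -0.22 to 0.073, miR-132 -0.091 to 0.16, let-7g -0.084 to 0.0069, miR-30d -0.11 to 0.02, miR-32 -0.24 to 0.057, miR-195 -0.12 to 0.037, miR-411a -0.11 to 0.090, miR-379 -0.20 to 0.035, miR-381 -0.16 to 0.077. In the same runs the difference of degree 1/4 minus normal was -0.0228 to 0.0772 for the TMM factor, -1.26 to 4.74 for miRNAs detected, -0.871 to 0.144 percentage points for the miR-1 share and -48799 to 97705 for total counts. No paired analysis was made, since each library is a separate animal with 1 phenotype label. The tests of seed families were not run. Under 10 CPM, 13 of 108 intervals included a 2-fold difference. How far depth or the spread between animals widened them was not tested.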
